A study of Mus musculus with 12 samples.

Results

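The Reg family of small secreted lectins was followed through 12 Affymetrix MG_U74Av2 arrays of mouse intestine and intestinal tumor. Its members are the genes Reg1, Reg2, Reg3a, Reg3b and Reg3g, chosen as the probe sets that the array's annotation gives to one of these symbols alone. This rule gave 10 probe sets, 2 for each of the 5 genes, of 12422 probe sets and 8251 named genes on the array. Probe sets whose mean signal lay in the lowest 40% were left out, and of each gene only the brightest probe set was kept. That left 6400 features, among them 4 Reg genes. Reg2 was too dim to pass, and its values come from a fit over every probe set with no filter. Of the 10 Reg probe sets, 8 were bright enough to pass.

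Reg proteins are C-type lectin-like proteins that are secreted by epithelial cells of the gut and by acinar cells of the exocrine pancreas. Reg3g and Reg3b are released into the gut lumen, where Reg3g binds peptidoglycan and kills Gram-positive bacteria. Their transcription in the intestine rises on contact with bacteria and on cytokine signalling through STAT3, for which interleukin 22 is the best known input. Reg1 and Reg2 are best known as products of the acinar pancreas that increase on injury, and Reg1 is also made in the crypts and lower villi of the small intestine.

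The mice, all male and Min/+, were sampled at 91 days of age. Min is a truncating mutation of 1 Apc allele that leads to intestinal adenomas. The arrays fell into 6 of normal intestine and 6 of tumor, so the normal tissue also came from Min/+ animals and no Apc wild-type intestine was included. Each tissue held 1 array for each combination of 3 diets, numbered #1, #2 and #3 with no composition given in the labels used here, and the genotypes Dnmt+/- and Dnmt+/+. Which Dnmt gene is meant is not stated in the labels. A sample code joins 1 normal and 1 tumor array, giving 6 pairs, but whether a code stands for a single animal, and whether tissue was pooled, is not stated. P-values therefore measure the spread between these arrays, which may be in part technical. Values are linear intensities after quantile normalization, which gives every array the same distribution, and differences are log2 of tumor over normal. Intensities of different probe sets are not set against each other, since probes differ in how brightly they bind.

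Some facts of the arrays touch the Reg values. The 4 arrays of diet #1 were deposited in another format, with 40.9% to 46.0% of probe sets at the value 50, and the other 8 arrays had a mean of 1000 each. Diet #1 and this format cannot be told apart, so diet #1 entered no diet contrast. The epithelial marker Vil1, the villus actin bundler, was bright on all arrays, between 8479 and 12017 in normal intestine and between 8015 and 9643 in tumor. The 2 normal arrays of diet #2 carried exocrine pancreas transcripts: 14 of 15 pancreas genes measured were higher on both than on any of the other 10 arrays. Their summed intensity was 260526 and 290429 there, while the other normal arrays gave 5029 to 14767 and tumors 8277 to 14973. Since Reg1 and Reg2 are also acinar genes, their results are given with and without diet #2. In bulk tissue, fewer cells of a type and less RNA per cell cannot be told apart.

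The genes lie side by side on mouse chromosome 6, in the order Reg3b, Reg3d, Reg3a, Reg2, Reg1 and Reg3g. Reg3d, and Reg4, were not among the symbols of the array's annotation. The starts of all 5 genes were matched in RefSeq (GRCm38.p6), and 140 bases before each start and 10 from it are printed here. A link between these sequences and the expression values was not tested. Capitals mark the longest run of bases shared with a named partner inside these windows: Reg3b with Reg3g, Reg3a with Reg3g, and Reg1 with Reg2.
Reg3b, chr6:78370745-78370894, plus strand: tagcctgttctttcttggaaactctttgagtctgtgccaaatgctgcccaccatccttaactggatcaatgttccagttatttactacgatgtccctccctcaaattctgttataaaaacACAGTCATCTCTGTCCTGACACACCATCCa
Reg3g, chr6:78468865-78469014, minus strand: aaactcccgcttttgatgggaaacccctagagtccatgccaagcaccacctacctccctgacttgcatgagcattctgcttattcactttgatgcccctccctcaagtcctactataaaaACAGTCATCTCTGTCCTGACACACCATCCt
Reg3a, chr6:78380569-78380718, plus strand: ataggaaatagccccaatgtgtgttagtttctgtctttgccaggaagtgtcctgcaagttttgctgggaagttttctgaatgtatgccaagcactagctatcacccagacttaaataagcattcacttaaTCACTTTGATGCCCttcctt
Reg1, chr6:78425843-78425992, plus strand: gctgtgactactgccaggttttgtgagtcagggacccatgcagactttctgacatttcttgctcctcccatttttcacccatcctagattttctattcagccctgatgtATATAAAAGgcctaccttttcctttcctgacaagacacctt
Reg2, chr6:78405015-78405164, plus strand: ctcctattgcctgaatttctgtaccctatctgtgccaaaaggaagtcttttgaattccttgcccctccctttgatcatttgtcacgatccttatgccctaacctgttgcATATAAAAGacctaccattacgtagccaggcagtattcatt

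Reg3b and Reg3g shared an unbroken run of 29 bases that began 20 bases before the start in both genes. Over windows of 300 bases, from 250 before each start, they were identical at 207 of 296 aligned positions (69.9%). Reg3a and Reg3g were identical at 178 of 251 (70.9%). Bases set against a gap were not counted as aligned, so these shares rest on stretches of different length. Reg1 and Reg2 were identical at 171 of 285 aligned positions, with a shared run of 9 bases that began 31 bases before both starts. By identity they were not each other's closest member. The share with Reg3a was higher for both, at 62.5% for Reg1 and 60.4% for Reg2, and the shares with Reg3b and Reg3g were lower. The run of 9 was the longest that Reg1 shared with any member. Reg2 shared longer runs, of 11 bases, with Reg3b and with Reg3g. The TATA box letters TATAAA were found on the gene's own strand 27 to 30 bases before the starts of Reg1, Reg2, Reg3b and Reg3g. Searched on both strands, they occurred in 13.6% of the 32851 promoter windows of this length. The window of Reg3a did not hold these letters. The run of 14 bases that Reg3a shared with Reg3g began 10 bases before the start of Reg3a and 57 before that of Reg3g. Distances from the annotated start therefore do not mark matching positions in that pair. An E-box, CACCTG, was found in Reg2, Reg3a and Reg3b and in 20.2% of all windows. The letters TTTCCC, a TC-box, were found in Reg1, Reg3b and Reg3g and in 25.2% of all windows. The palindrome TTCNNNGAA, which STAT dimers bind, was found in Reg3b only among the members, upstream of the TATA box, and in 8.30% of all windows. These matches describe letters in the windows and overlap with no other motif searched, and binding was not measured.

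**Figure D1:**
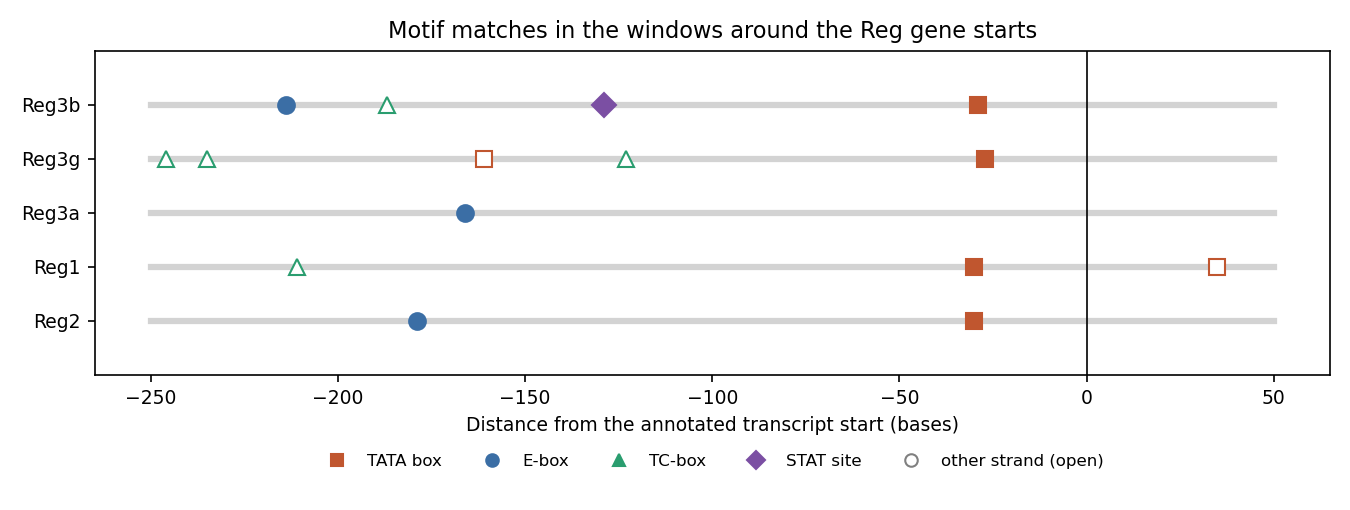
Motif matches in the 300-base window around the annotated start of each Reg gene, with distance from the start in bases on the horizontal axis, filled symbols on the gene's strand and open symbols on the other strand. A filled TATA box lies 27 to 30 bases before the start in all genes except Reg3a, and the single STAT-type match is in Reg3b.

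Reg3g, the bactericidal lectin of the gut lumen, was higher in tumor on every array. Its intensity was 759 at the lowest, 1227 at the median and 3251 at the highest in normal intestine, and 4962, 10141 and 14932 in tumor. The groups did not overlap: the dimmest tumor array, diet #3 Dnmt+/+, was brighter than the brightest normal array, diet #1 Dnmt+/+. Reg3g rose 6.50-fold in tumor, a log2 difference of 2.70 ± 0.24 (SE), with an adjusted p of 6.25e-05 in limma with Benjamini-Hochberg adjustment, and it was higher in 6 of 6 pairs. Its second probe set, a family set by the array's naming, gave 2.62 ± 0.31 with an adjusted p of 0.000705 in limma over every probe set. That set followed the second probe set of Reg3b closely (r = 0.99, 12 arrays, diet means removed), and cross-matching was not tested. Across all 6400 features 35.2% passed the threshold of 0.05 for tissue, 18.2% higher in tumor and 16.9% lower. Against that background, 3 of the 4 Reg genes tested passed, 2 of them higher and 1 lower.

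Reg3b, also a lectin of the gut lumen, was higher in tumor as well. Its intensity was 4962 at the lowest, 9560 at the median and 19333 at the highest in normal intestine, and 22564, 27554 and 30825 in tumor. The groups did not overlap, and the tumor arrays lay closer together (log2 SD 0.16) than the normal arrays (log2 SD 0.76). Reg3b rose 2.74-fold, a log2 difference of 1.46 ± 0.25 with an adjusted p of 0.00185 in limma, and was higher in 6 of 6 pairs. The second probe set gave a larger rise, 5.37-fold or 2.43 ± 0.34, with an adjusted p of 0.00153 in limma over every probe set. It ran from 999 to 4983 in normal intestine (log2 SD 0.83) and from 8517 to 14659 in tumor (log2 SD 0.33). Both probe sets rose in all pairs, and the size of the rise depends on which is read. The array's naming marks the main set as one that may match more than 1 transcript and the second as a family set. Cross-matching between the Reg3 transcripts was not tested, nor was loss of range in the main set at its high tumor intensities.

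Within each of diets #2 and #3, Reg3g and Reg3b were also higher in tumor. For Reg3g the difference was 3.43 ± 0.28 in diet #2 with an adjusted p of 0.000658 in limma, where 17.4% of features passed. In diet #3 it was 2.71 ± 0.28 with an adjusted p of 0.00174 in limma, where 17.8% passed. Reg3b differed by 2.09 ± 0.30 in diet #2, with an adjusted p of 0.00546 in limma, and by 1.58 ± 0.30 in diet #3, with an adjusted p of 0.0146 in limma. The call for Reg3b in diet #2 was lost without the diet #2 Dnmt+/- tumor (adjusted p = 0.0530). In diet #3 it was lost without the Dnmt+/- tumor (adjusted p = 0.0988) or the Dnmt+/+ normal array (adjusted p = 0.102). In the diet #1 pairs the values stood higher in tumor too. Reg3g went from 2977 to 14932 in the Dnmt+/- pair and from 3251 to 9848 in the Dnmt+/+ pair. The diet #1 normal arrays were the brightest normal arrays for both genes.

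**Figure D2:**
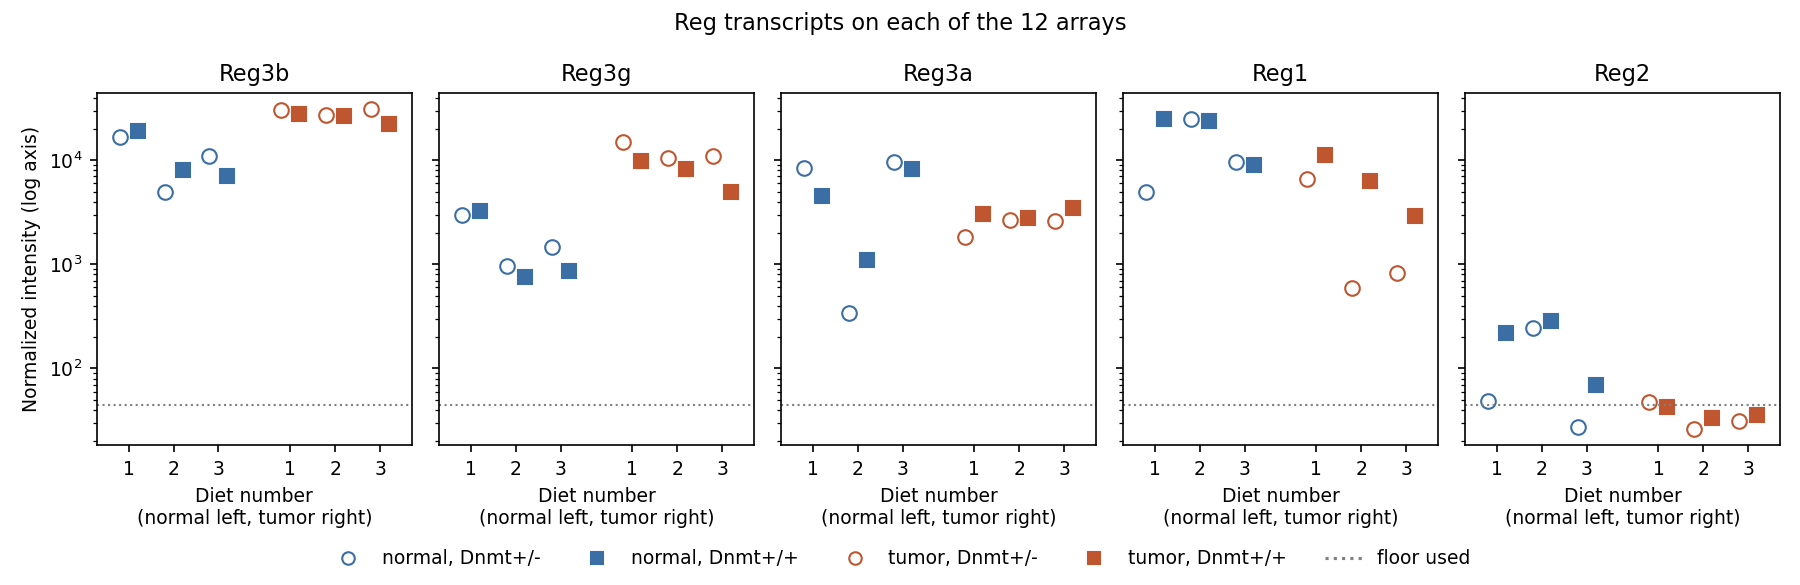
Normalized intensity (log axis) of the main probe set of each Reg gene on each of the 12 arrays, by diet number, with normal intestine in blue, tumor in orange, Dnmt+/- as open circles and Dnmt+/+ as filled squares. Tumor arrays lie above all normal arrays for Reg3b and Reg3g, normal arrays of diet #2 lie lowest for Reg3a, and Reg2 is at or near the floor of 44.8 in tumor.

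Reg3a, the third member of the Reg3 group, did not pass the test for tissue, and its direction differed between diets. On the diet #2 normal arrays its intensity was 339 (Dnmt+/-) and 1095 (Dnmt+/+), against 4512 to 9573 on the other 4 normal arrays. In tumor it stayed within 1842 to 3462 on all 6 arrays, with a median of 2721. The normal arrays therefore fell on both sides of the tumor arrays, and the spread of Reg3a was in normal intestine. The log2 SD was 1.97 over the 6 normal arrays and 0.31 over the 6 tumor arrays. Over all pairs the difference was -0.26 ± 0.62, with an adjusted p of 0.776 in limma, and Reg3a was lower in tumor in 4 of 6 pairs.

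In diet #2 Reg3a rose 4.46-fold in tumor, a log2 difference of 2.16 ± 0.53 with an adjusted p of 0.0329 in limma. In diet #3 the difference was -1.56 ± 0.53, with an adjusted p of 0.0905 in limma, and passed without either diet #2 normal array (adjusted p = 0.0449). Without the 4 arrays of diet #2 Reg3a fell by 1.47 ± 0.27, with an adjusted p of 0.0175 in limma over 8 arrays. The difference between the diet #3 and diet #2 tissue effects was -3.72 ± 0.76 and did not pass, with an adjusted p of 0.179 in limma (unadjusted 0.00156), where 0.344% of features passed. The second probe set, also a family set, gave -4.31 ± 0.87 for the same contrast with an adjusted p of 0.150 in limma. It tracked the first closely over the arrays (r = 0.99, 12 arrays, diet means removed). The diet #2 call did not hold in 7 of 12 fits that left out 1 array. It was lost without any 1 of the diet #3 arrays (adjusted p = 0.0534 to 0.0547), without the Dnmt+/- normal array of diet #2 (1.32, adjusted p = 0.175), or without either diet #2 tumor array (adjusted p = 0.182 and 0.126). The diet #3 minus diet #2 difference over both tissues was 2.00 ± 0.76 for Reg3a, with an adjusted p of 0.167 in limma, where 4.28% of features passed. For the other 3 tested members it was between -0.86 and 0.23 and did not pass.

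The normal arrays on which Reg3a was low are those that carried pancreas transcripts. They also had the lowest summed intensity of 22 enterocyte genes among the normal arrays, 147349 and 159001 against 211126 to 233185. The part of either in the Reg3a values was not tested. In tumor the enterocyte sum was 136430 to 177671, and Reg3a there lay above its diet #2 normal values.

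**Figure D3:**
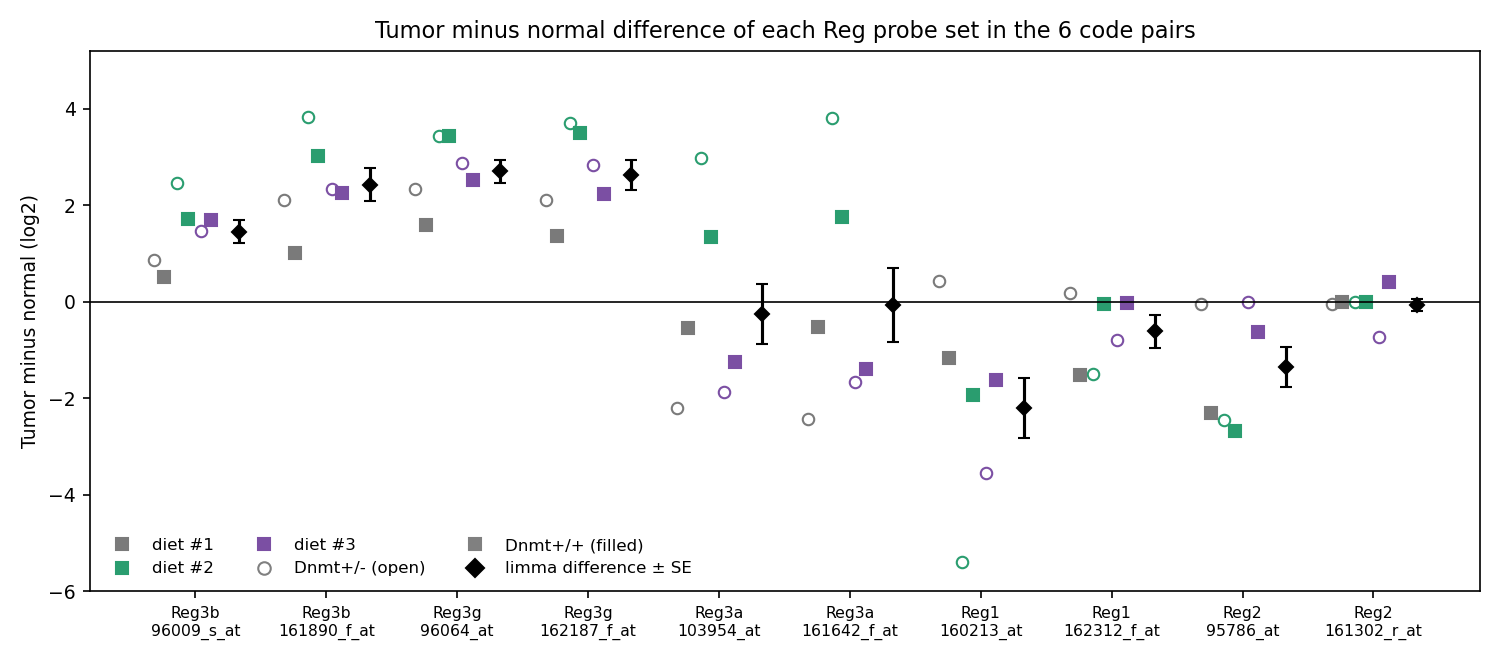
Tumor minus normal difference (log2) of each of the 10 Reg probe sets in each of the 6 code pairs, coloured by diet number with Dnmt+/- open and Dnmt+/+ filled, and the limma difference with its SE as black diamonds. All pairs lie above 0 for both probe sets of Reg3b and of Reg3g, the diet #2 pairs of Reg3a lie above 0 and its other pairs below, and 5 of 6 pairs of the main Reg1 probe set lie below 0.

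Reg1, made by acinar pancreas and by crypt epithelium, was lower in tumor. Its intensity was 4956 at the lowest, 16854 at the median and 24884 at the highest in normal intestine, and 597, 4631 and 11167 in tumor. The groups overlapped: the diet #1 Dnmt+/- normal array, at 4956, lay below 3 tumor arrays. Reg1 fell by 2.20 ± 0.62 on the log2 scale, 4.60-fold, with an adjusted p of 0.0211 in limma, and was lower in tumor in 5 of 6 pairs. Its second probe set, a family set, gave -0.62 ± 0.34 with an adjusted p of 0.271 in limma over every probe set, and was lower in tumor in 5 of 6 pairs as well. The call of the main probe set was lost without the diet #3 Dnmt+/- normal array (-1.94, adjusted p = 0.0544) and without the diet #3 Dnmt+/- tumor array (-2.08, adjusted p = 0.0515). Without the 4 arrays of diet #2 the difference was -1.48 ± 0.59, 8 arrays, and did not pass, with an adjusted p of 0.136 in limma.

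The largest Reg1 difference was in diet #2, whose normal arrays carried the pancreas transcripts. There it was -3.65 ± 0.83 with an adjusted p of 0.0249 in limma, and in diet #3 it was -2.58 ± 0.83 with an adjusted p of 0.0762 in limma, which passed without either diet #2 tumor array (adjusted p = 0.0494). The diet #2 call was lost without the Dnmt+/- normal (-2.81, adjusted p = 0.167) or the Dnmt+/- tumor array of that diet (-2.42, adjusted p = 0.153). The difference between the diets, 1.07 ± 1.18, did not pass, with an adjusted p of 0.859 in limma. On the normal arrays of diet #2 Reg1 stood at 24884 and 24065, with pancreas sums of 260526 and 290429. On those of diet #1 it was 24884 (Dnmt+/+) and 4956 (Dnmt+/-), with sums of 11886.5 and 14767. These sums held Spink1, the pancreas gene not higher on the diet #2 normal arrays, at 6776 and 9437. On the diet #3 normal arrays Reg1 was 9643 and 8999, with sums of 5930 and 5029, and Spink1 was 143 and 52.0. The equal Reg1 values of 24884 came from deposited intensities of 32842 (diet #2) and 13365 (diet #1). The part of pancreas tissue in the Reg1 difference was not tested.

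Reg2, the neighbour of Reg1 and also an acinar product, was dim throughout. In normal intestine it stood at 246 and 285 on the diet #2 arrays and at 220 on the diet #1 Dnmt+/+ array, the same 3 arrays on which Reg1 was highest. The other 3 normal arrays gave 27.5, 48.9 and 68.9. The value 48.9 is where the floor of the diet #1 files falls after normalization. In tumor Reg2 was between 26.0 and 47.4, with 5 of 6 arrays at the floor of 44.8 set here and the sixth at the floor of its file, so folds against tumor depend on the floor. The difference was -1.35 ± 0.42 with an adjusted p of 0.0575 in limma over every probe set with no filter. Reg2 was lower in tumor in 4 of 6 pairs, and in the other 2 both arrays were at a floor. Without the 4 arrays of diet #2 the difference was -0.74 ± 0.43, 8 arrays, and did not pass, with an adjusted p of 0.403 in limma over every probe set. In diet #2 it was -2.57 ± 0.54 with an adjusted p of 0.0300 in limma, and in diet #3 it was -0.31 ± 0.54 with an adjusted p of 0.898 in limma. The second probe set of Reg2 was at either floor on 5 of 6 arrays in each tissue and gave -0.06 ± 0.12, with an adjusted p of 0.852 in limma.

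**Figure D4:**
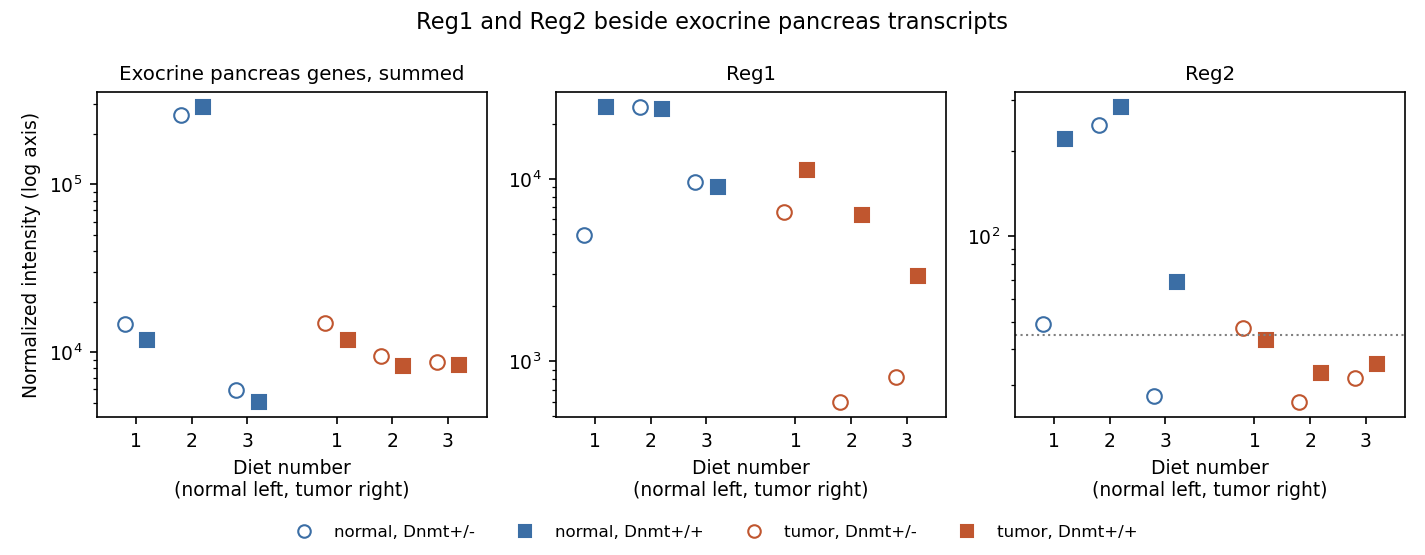
Summed normalized intensity of 15 exocrine pancreas genes (left), Reg1 (middle) and Reg2 (right) on each of the 12 arrays, log axes with separate ranges, by diet number, with normal intestine in blue, tumor in orange, Dnmt+/- open and Dnmt+/+ filled, and the dotted line at the floor of 44.8. The pancreas sum is high on the 2 normal arrays of diet #2 only, while Reg1 and Reg2 are also high on the diet #1 Dnmt+/+ normal array.

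By Dnmt genotype no member passed the test. Over both tissues the Dnmt+/- minus Dnmt+/+ difference was 0.52 ± 0.24 for Reg3g, 0.07 ± 0.25 for Reg3b, -0.29 ± 0.62 for Reg3a and -1.36 ± 0.62 for Reg1. For Reg2, in the fit over every probe set, it was -0.49 ± 0.42 with an adjusted p of 0.804 in limma. Adjusted p-values of the tested members in limma were 0.917 to 0.988, and 0.0156% of features, 1 of 6400, passed (292 at an unadjusted p under 0.05). In tumor Reg1 was dimmer in Dnmt+/- than in Dnmt+/+ in every diet, at 6634 against 11167 in diet #1, 597 against 6339 in diet #2 and 826 against 2924 in diet #3. That difference was -1.99 ± 0.87 with an adjusted p of 0.945 in limma (unadjusted 0.0494). In normal intestine the same comparison gave -0.73 ± 0.87 for Reg1, with an adjusted p of 1 in limma. There it rested on diet #1, where 4956 stood against 24884, since both genotypes were within 1.07-fold in diets #2 and #3.

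Reg3g was brighter in Dnmt+/- than in Dnmt+/+ tumor in every diet, at 14932 against 9848, 10433 against 8259 and 10943 against 4962. This gave 0.69 ± 0.36 in tumor with an adjusted p of 0.945 in limma, and 0.34 ± 0.36 in normal intestine with an adjusted p of 1 in limma. Reg3b differed by 0.21 ± 0.36 in tumor and by -0.08 ± 0.36 in normal intestine, and Reg3a by -0.40 ± 0.93 and -0.18 ± 0.93. In limma 0% of features passed for genotype in tumor (271 at an unadjusted p under 0.05) and 0% for genotype in normal intestine (203 at an unadjusted p under 0.05). The tissue by genotype term passed for 0% of features (179 at an unadjusted p under 0.05) and was -1.27 ± 1.23 for Reg1 and between -0.22 and 0.36 for the other tested members.

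Over the 12 arrays, with the mean of each diet removed, Reg3b and Reg3g followed each other (r = 0.96), and Reg1 ran against Reg3g (r = -0.80) and with Reg2 (r = 0.72). The Reg2 value rests on few arrays, since that probe set was at either floor on 8 of 12. The second Reg2 probe set, also mostly at a floor, gave an r of 0.19 with Reg1. Reg3a followed none of the tested members, with r of -0.20 to Reg1, 0.16 to Reg3b and -0.01 to Reg3g. These correlations describe 12 arrays that share tissue, and a gene that differs by tissue correlates with any other that does. The named genes with patterns most like Reg3g by Pearson r were Gnai2 (0.99), Vopp1 (0.98), Trim59 (0.98), Ceacam1 (0.98) and Ccnb2 (0.98). For Reg3b they were Ccnb2 (0.97), a mitotic cyclin, then Ssr2, Fam98a, Morf4l2 and Zdhhc16 (0.96 to 0.97). For Reg1 they were Papss2 (0.96), which makes the sulfate donor of sulfation reactions, then Azin1, Znhit1, Miip and B4galt3 (0.94 to 0.95). Those most like Reg3a were Aldh1a1 (0.96) and Aldh9a1 (0.91), both aldehyde dehydrogenases, then Fibp, Aanat and C1qtnf12 (0.88 to 0.91). By Spearman's rank 3 of these 5 stayed among the 5 most like for Reg3a, 1 for Reg1, and 0 for Reg3b and for Reg3g.

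Among 26 measured genes of the cytokine and innate signals that feed Reg transcription, 4 rose in tumor and 3 fell, with a median difference of 0.16. Over all 6400 features the median was 0.00, with 18.2% higher in tumor and 16.9% lower. Il1rn, the secreted antagonist of the interleukin 1 receptor, rose 7.16-fold (2.84 ± 0.32, adjusted p = 0.00021 in limma). Il18, an epithelial cytokine, fell by 1.84 ± 0.20 (adjusted p = 0.000166 in limma), and Lifr, the receptor of leukaemia inhibitory factor, by 0.96 ± 0.33 (adjusted p = 0.0486 in limma, and 0.173 without diet #2). Socs3, a feedback inhibitor induced by STAT3, rose by 0.62 ± 0.15 (adjusted p = 0.0125 in limma, and 0.107 without diet #2), and Stat3 itself differed by 0.01 ± 0.12. The interleukin 22 receptor partner Il10rb differed by -0.16 ± 0.10 and the interleukin 6 receptor partner Il6st by 0.11 ± 0.12, and neither passed. Of 54 genes listed, 35 were on the array by a symbol of their own. Il22 and its receptor gene Il22ra1 were not among them, so their levels were not seen. The ligands Il6, Il17a and Il11 did not pass the filter and were at either floor on 12, 9 and 9 of 12 arrays. When arrays were scaled to a common median, 2 of 24 genes of this list rose and 5 fell. That scaling moved the median of all features to -0.10, with 847 features higher in tumor and 1551 lower. With no normalization 7 genes of the list rose and 2 fell, beside 1358 features higher and 729 lower. Without diet #2 there were 2 and 2, and 1286 of 6400 features passed in either direction.

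Of 19 other measured genes for antimicrobial products of the gut and related defence proteins, 11 rose in tumor and 1 fell. Over all features 18.2% were higher in tumor and 16.9% lower. The median difference of the list was 1.16. Without diet #2 there were 8 rises and 1 fall, where 1286 of 6400 features passed in either direction. Wfdc18, a whey acidic protein family member, rose 35.6-fold, Retnlb, a bactericidal goblet cell product, 26.2-fold, and Pla2g2a, a secreted phospholipase of Paneth cells, 18.3-fold. Pigr, the receptor that carries immunoglobulin A to the lumen, fell by 0.73 ± 0.08 (adjusted p = 0.000158 in limma). Among 11 other lectins, 2 rose, a share near the 18.2% of all features: Lgals3 1.94-fold and Lgals1 1.53-fold, both galectins. With arrays scaled to a common median 2 of these lectins rose and 3 fell, where 847 of all features rose and 1551 fell. Without diet #1 there were 4 and 0, and the counts of all features by direction are not given.

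Lists of cell markers also held genes that differed by tissue, and their part in the Reg differences was not tested. Where no other setting is named, the counts below stand beside 18.2% of all features higher in tumor and 16.9% lower. These shares are 1167 and 1084 features. With arrays scaled to a common median 847 features rose and 1551 fell, and with no normalization 1358 rose and 729 fell. Without diet #2, 1286 of 6400 features passed in either direction. Counts of all features by direction are not given without diet #1 or diet #2. Of 21 enterocyte genes 9 fell and 1 rose, led by the sugar transporters Slc2a5 (-2.92) and Slc2a2 (-2.28) and the peptidase Mme (-1.98). With arrays scaled to a common median 15 of them fell and 0 rose. Of 6 Paneth cell genes 4 rose, led by Pla2g2a (4.20), Mptx1 (2.63) and Mmp7 (2.24). The summed intensity of the 7 Paneth genes on the array, of 23 listed, was 20606 to 40808 in normal intestine and 44002 to 56062 in tumor. That sum includes Clps, which is also in the pancreas list. On the diet #2 normal arrays Clps was 18919 and 22094, and the Paneth sum was 35786 and 40808. Of 13 goblet cell genes 7 rose and 1 fell, led by Retnlb, Foxa1 (2.50) and Spink4 (1.76). With arrays scaled to a common median 5 goblet genes rose and 5 fell, and without diet #2 there were 4 and 1. Of 17 regeneration genes 15 rose, led by Lamb3 (4.26), Anxa1 (4.15) and Krt7 (4.08). Of 15 leukocyte genes 3 rose, led by Ltf (1.16) and Cd14 (0.90), and 4 fell, led by Cd4 (-1.14), which did not pass without diet #1 (adjusted p = 0.0789 in limma) or without diet #2 (adjusted p = 0.147 in limma). With no normalization 4 leukocyte genes rose and 0 fell, and without either diet #1 or diet #2 there was 1 fall. Of 15 exocrine pancreas genes 0 passed with all diets, with a median of -1.48. Without diet #2 there were 4 rises, and with arrays scaled to a common median 2 falls. Of 5 endocrine genes 3 fell, Slc2a2, Sst (-1.89) and Chgb (-1.17), of which Slc2a2 is also an enterocyte transporter.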

How the data were processed

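RNA of normal intestine and tumor was hybridised to 12 single-colour arrays, per the labels. The authors deposited 1 linear intensity per probe set; the summarising software is not named in them. Of 12488 probe sets, 66 controls were removed. Intensities were quantile-normalized, raised to the 20th percentile (44.8) where lower, and put on a log2 scale; 2 probe sets may thus share a value. The lowest 40% by mean and all but the brightest probe set of a gene were left out. R 4.3.3 and limma 3.58.1 fitted a model of tissue, diet and genotype, with Benjamini-Hochberg adjustment over 6400 features and a threshold of 0.05. Interactions added 1 term at a time; effects within a tissue or diet were added after values were seen. The fits were tested on simulated data. Precision is limited by the number of arrays, since intensities carry no counts.

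Named genes were all members, the 3 genes of each of 11 lists past the threshold with the largest tissue difference, and the 5 genes most like each Reg gene. Other genes (Stat3, Socs3, Il10rb, Il6st, Il6, Il17a, Il11, Pigr, Vil1, Spink1, Clps) were named after their values were seen. Members and lists were chosen with earlier results of these data known.

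Sample codes pair arrays by label: deviations from tissue means correlated at 0.46 to 0.68 within codes, and at -0.57 to -0.38 after diet and genotype were removed. Fitting diet and genotype removes most differences between codes, which by itself pulls the second range below 0. That range therefore cannot tell whether paired arrays are alike. Probe sets with 1 symbol numbered 10833, with several 396 and with none 1193. Promoters came from RefSeq (GRCm38.p6), and array coordinates were not used.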

Additional observations from a re-analysis of the deposited data

Results flagged for a closer look

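The tumor minus normal difference of Reg3a changed sign between diets. Diet #3 minus diet #2 was -3.72 for the main probe set and -4.31 for the second, with both diet #2 pairs higher and both diet #3 pairs lower in tumor; neither passed after adjustment over all features.

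In 3 of 20 groups of 6 arrays examined (10 probe sets in 2 tissues), 1 array stood apart by Dixon's gap, the distance to the nearest array as a share of the range, on log2 values raised to the floor of 44.8. Chance marks about 1 group in 20. All 3 are Reg2 groups in which 4 or 5 arrays were set to that floor, so the floor makes the gap: with no floor, an alternative added after the values were seen, 0 of the 20 groups passed the critical value. The second Reg2 probe set had a gap of 0.822 for the diet #3 Dnmt+/- normal array, at 73.8, and 0.303 with no floor. It had a gap of 0.802 for the diet #3 Dnmt+/+ tumor, at 59.4, and 0.203 with no floor. The main Reg2 probe set had a gap of 1 for the diet #1 Dnmt+/- tumor, whose value of 47.4 is the floor of its file after normalization and no measured signal.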

How the results depend on the processing

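The tissue differences of Reg3b and Reg3g kept their direction and their side of the threshold in every alternative run except within diet #1, where 4 arrays gave 0.69 and 1.96 (adjusted p = 0.280 and 0.199 in limma); with each array left out they ran from 1.26 to 1.60 and from 2.57 to 2.90. Reg1 by tissue no longer passed without diet #2 (-1.48), within diet #1 (-0.37) or within diet #3 (-2.58, adjusted p = 0.0607 in limma), and ran from -2.60 to -1.70 with each array left out. Reg3a by tissue passed as a fall without diet #2 (-1.47) and within diet #3 (-1.56), and was positive without diet #1 (0.30) and within diet #2 (2.16); with each array left out it ran from -0.81 to 0.073. Its diet contrast passed with no normalization (-3.97, adjusted p = 0.0179) and not in the 9 other alternatives (highest adjusted p 0.188). Within diets, 4 of 9 alternatives brought Reg1 past the threshold in diet #3, 2 of 9 brought Reg3a past it there, and 1 of 9 lost Reg3a in diet #2.

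Counts of features past the threshold moved as well. For tissue they were 1286 without diet #2, and 0, 1419 and 495 within diets #1, #2 and #3, against 2251; for genotype 0 to 3 against 1, with 3 under median scaling, the floor at the 40th percentile, removal of the lowest 60%, trended robust variances and the replicate block, 2 with no normalization, and 0 with no filter, without diet #1 or #2 and within each diet. For diet #3 minus diet #2 they were 90 with no normalization, 433 without the lowest 60% and 594 with the replicate block, against 274. For tissue by diet they were 47 under median scaling, 55 with no normalization, 61 with the floor at the 40th percentile, 45 with no filter, 37 with trended robust variances and 49 without diet #1, against 22. Without diet #1 there was 1 for tissue by genotype and 1 for genotype in tumor, which also had 2 with the floor at the 40th percentile. The replicate block changed no call of a Reg gene for tissue, genotype or diet. With each array left out the counts were 1879 to 2178 (tissue), 0 to 2 (genotype), 21 to 222 (diet), 13 to 34 (tissue by diet), 256 to 1188 (tissue in diet #2), 305 to 1165 (tissue in diet #3), and 0 to 1 for tissue by genotype and for genotype in either tissue.

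Some differences that never passed changed sign. Genotype of Reg3b was -0.072 with no normalization, -0.038 within diet #1 and -0.32 within diet #2, and -0.053 to 0.27 with each array left out; Reg3a was 0.088 within diet #1, and -0.67 to 0.25. In normal intestine, without diet #1, Reg1 was 0.074, and without diet #2 Reg3a was 0.57 and Reg3b 0.23; with each array left out they ran from -1.47 to 0.42, -0.92 to 1.13 and -0.37 to 0.34. In tumor Reg3a ran from -1.32 to 0.29 and Reg3b from -0.017 to 0.49. Tissue by genotype of Reg3a was 0.50 without diet #1 and ran from -1.53 to 0.52, Reg3b from -0.12 to 0.58 and Reg3g from -0.046 to 0.72. Tissue by diet of Reg1 ran from -0.16 to 2.30, and diet #3 minus diet #2 from -0.074 to 0.38 for Reg3b and from -0.16 to 0.23 for Reg3g. The cause of these changes was not tested. Where 1 array was left in an arm, it was taken to vary like the others.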
